A study of Mus musculus with 2 samples.

Results

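Long intergenic noncoding RNA (lincRNA) genes are transcribed by RNA polymerase II from their own start sites but encode no protein. Their transcripts are often spliced, usually far less abundant than mRNAs, and include nuclear architectural RNAs, precursors of microRNAs and small nucleolar RNAs, and Xist, which coats the inactive X chromosome. Many lincRNA starts lie beside the start of a protein-coding gene on the other strand, within the same nucleosome-depleted stretch, while others lie far from any coding gene. DNase I cuts such stretches preferentially, so sequencing the cut ends (DNase-seq) locates open promoters whether or not the transcript is measured.

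Of 5854 lincRNA genes in the GENCODE vM21 annotation of the mm10 (GRCm38) mouse genome, 1422 had a peak of each replicate within 500 bp of an annotated start. They are called open here. Of these, 308 also had a protein-coding start within 1 kb of any of their annotated starts and are called near-coding, and the other 1114 are called lone. Distances to coding genes are measured from the nearest start of the lincRNA gene, and CpG content, motifs and surroundings from its open start. A lincRNA gene that was not open was measured at the start with the highest-ranked peak of either replicate. Without any peak, the start with the lowest coordinate was used, whatever the strand. Of the genes not open, 80.1% had 1 start only. The members were chosen by the presence of peaks, so their number, scores and peak distances are given as a description without a test. The libraries came from hindbrain (cerebellum, pons and medulla) of B6NCrl mice on postnatal day 0, healthy, with males and females pooled and with no treatment or mutation. There was 1 group with 2 biological replicates, recorded as different tissue samples under the same donor entry, and the number of animals in each was not given in the sources used here. Whole tissue was used, so fewer cells with an open promoter and a weaker opening per cell cannot be told apart.

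Replicate 1 had 270757 peaks and replicate 2 had 171790 on the assembled chromosomes, each peak 150 bp wide. Read depth is unknown, and the interval of a share covers the error of counting genes and nothing else. The labelled tissue was checked on coding genes fixed as markers: 14 of 16 hindbrain markers, 5 of 10 forebrain markers, 1 of 6 liver markers (Afp) and 0 of 6 blood markers had a promoter peak of each replicate, against 66.3% of all protein-coding genes. The hindbrain markers without one were Ptf1a and Lmx1b.

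The sequences of 8 peaks of replicate 1 show the range of promoters found. Each is the full 150 bp peak in mm10, read 5′ to 3′ on the strand of the lincRNA, and capitals mark matches on either strand to 12 short motifs spelled out with the motif results. The first pair are the lone promoters with the highest mean rank. The Gm11527 peak (chr11:95858776-95858925, minus strand) lies in an exon of Gm11527 and of the noncoding gene 4833417C18Rik, and holds letters of a GC box, a CCAAT box and part of the CTCF motif. The 6720427I07Rik peak (chr13:48546556-48546705, minus strand) overlaps no annotated gene and holds GC boxes and a CCAAT box.
Gm11527: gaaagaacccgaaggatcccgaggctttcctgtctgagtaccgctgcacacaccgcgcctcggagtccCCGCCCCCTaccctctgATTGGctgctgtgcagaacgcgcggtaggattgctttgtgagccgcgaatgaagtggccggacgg
6720427I07Rik: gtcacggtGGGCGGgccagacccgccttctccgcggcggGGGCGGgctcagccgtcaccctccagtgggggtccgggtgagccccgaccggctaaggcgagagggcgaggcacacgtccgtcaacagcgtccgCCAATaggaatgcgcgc

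The next pair are the near-coding promoters with the highest mean rank. The 2700012I20Rik peak (chr9:57076176-57076325, minus strand) lies in an intron of Sin3a, whose product is a scaffold of histone deacetylase complexes. The 9330104G04Rik peak (chr7:16875076-16875225, minus strand) overlaps no annotated gene and lies beside Dact3, a Dishevelled-binding regulator of Wnt signalling. Both hold GC box letters, the 2700012I20Rik peak with CCAAT boxes and the 9330104G04Rik peak with a TATA box.
2700012I20Rik: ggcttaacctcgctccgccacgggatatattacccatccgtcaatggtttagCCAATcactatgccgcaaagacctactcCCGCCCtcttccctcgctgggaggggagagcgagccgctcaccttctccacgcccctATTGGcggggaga
9330104G04Rik: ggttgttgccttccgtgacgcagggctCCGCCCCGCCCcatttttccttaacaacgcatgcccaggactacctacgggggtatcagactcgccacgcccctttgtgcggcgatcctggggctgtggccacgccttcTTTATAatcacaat

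Of the well-known lincRNAs, Neat1, the scaffold of nuclear paraspeckles, and Snhg6, a host of small nucleolar RNAs, are shown because their peaks ranked among the highest of the listed genes. The Neat1 peak (chr19:5845876-5846025, minus strand) lies in an intron of the antisense gene Frmd8os and holds a CRE and a GC box. The Snhg6 peak (chr1:9944076-9944225, minus strand) lies in an exon of Snhg6 and holds ETS motifs.
Neat1: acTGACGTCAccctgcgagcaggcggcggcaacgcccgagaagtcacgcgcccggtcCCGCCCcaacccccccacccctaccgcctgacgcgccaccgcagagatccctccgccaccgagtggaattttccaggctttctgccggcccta
Snhg6: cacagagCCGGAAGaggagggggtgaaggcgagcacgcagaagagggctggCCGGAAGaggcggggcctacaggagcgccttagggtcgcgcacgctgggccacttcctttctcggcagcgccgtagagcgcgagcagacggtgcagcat

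The last pair are lone promoters that hold the RFX letters, which no near-coding window of 200 bp around the start held. The Gm42196 peak (chr3:28176456-28176605, plus strand) lies in an exon of Gm42196 and contains 0 CpG dinucleotides, against 14 in the Gm11527 peak and 19 in the 6720427I07Rik peak. The 6330576A10Rik peak (chr14:100459216-100459365, plus strand) overlaps no annotated gene and contains 4. A higher-ranked lone peak with the RFX letters, that of 1700064M15Rik (scores 135 and 121), is not printed and contains 19. Peaks with these letters were therefore not all poor in CpG.
Gm42196: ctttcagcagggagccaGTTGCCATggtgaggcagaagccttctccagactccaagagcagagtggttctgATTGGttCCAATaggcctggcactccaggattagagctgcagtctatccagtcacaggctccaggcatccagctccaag
6330576A10Rik: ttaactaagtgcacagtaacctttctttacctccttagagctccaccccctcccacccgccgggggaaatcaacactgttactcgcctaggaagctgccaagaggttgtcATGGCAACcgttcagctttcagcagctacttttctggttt

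LincRNA genes were open less often than protein-coding genes, and those close to a coding start more often than the others. The share open was 24.3% of lincRNA genes (1422 of 5854, exact binomial 95% interval 23.2 to 25.4), against 66.3% of protein-coding genes (14541 of 21938, 65.7 to 66.9) and 34.9% of all 55413 annotated genes. The rule used these peaks, so nothing further is read from that difference. Of lone lincRNA genes 20.4% were open (1114 of 5461, 19.3 to 21.5), and of near-coding ones 78.4% (308 of 393, 74.0 to 82.3). By distance of the nearest coding start the share was 78.4% up to 1 kb, 25.4% from 1 to 5 kb, 22.8% from 5 to 20 kb, 25.7% from 20 to 50 kb, 21.1% from 50 to 100 kb and 15.9% beyond 100 kb. The share also differed with annotation depth, at 21.3% of genes with 1 annotated start, 30.5% with 2 to 3 starts and 57.8% with 4 or more. Single-exon lincRNA genes were open at 30.3% (96 of 317, 25.3 to 35.7) and spliced ones at 23.9% (1326 of 5537, 22.8 to 25.1).

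**Figure D1:**
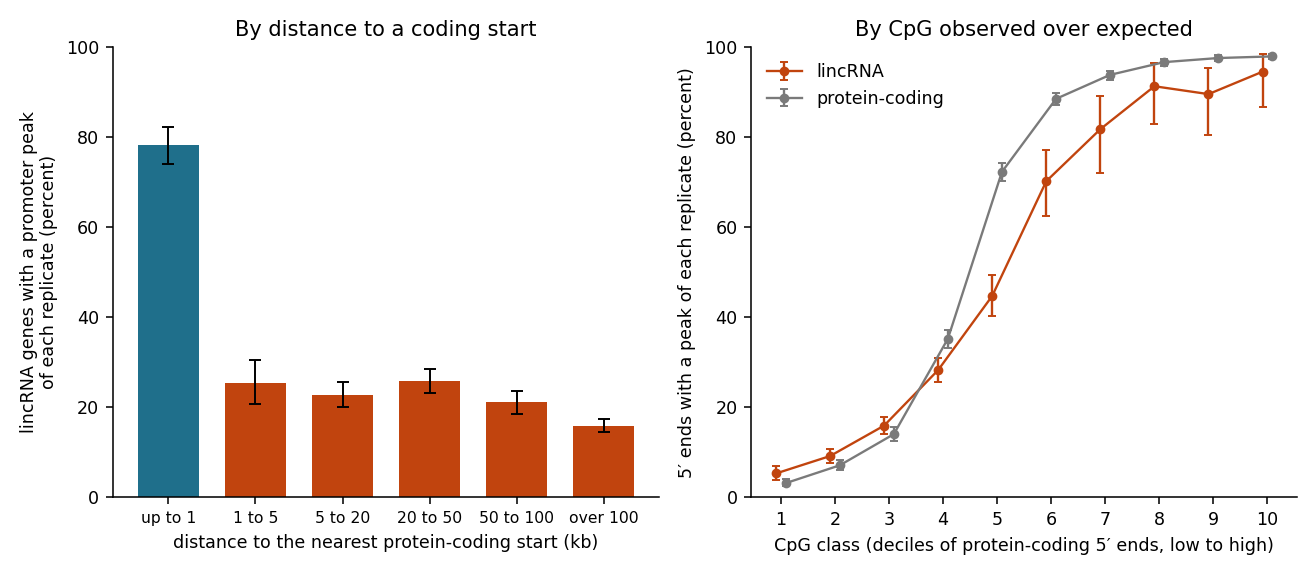
Left, percent of lincRNA genes with a promoter peak of each replicate by distance in kb to the nearest protein-coding start. Right, percent of gene 5′ ends with a peak of each replicate by CpG class for lincRNA and protein-coding genes. Bars and points are shares with exact binomial 95% intervals; the share is 78.4% up to 1 kb and 25.4% from 1 to 5 kb, and the lincRNA points lie below the protein-coding ones in CpG classes 4 to 10.

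The replicates found largely the same lincRNA promoters where replicate 2 had a peak. Replicate 1 alone gave 1904 genes and replicate 2 alone 1486. Of the genes with a peak in replicate 1, 74.7% had one in replicate 2 (72.7 to 76.6), and of those with one in replicate 2, 95.7% had one in replicate 1 (94.5 to 96.7). With lists of equal length, cut by score, these shares were 87.2% (85.4 to 88.8) and 90.2% (88.5 to 91.6), so much of their difference went with list length. The longer list of replicate 1 stands beside this: 482 lincRNA genes had a promoter peak of replicate 1 alone, 64 of replicate 2 alone, and 3886 lacked any. Replicate 1 only was the class of 8.51% of lone and 4.33% of near-coding lincRNA genes, counted over all genes of the class with or without a peak. Of those with a replicate 1 peak, 1114 of 1579 lone and 308 of 325 near-coding genes also had one in replicate 2. Agreement was thus lower among lone genes. In 2 lone members the replicates' peaks lay at different starts of the gene.

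The highest peaks seen in replicate 1 only belonged to 3110006O06Rik (score 94), which lies 18813 bp from the start of the nuclear receptor gene Nr2f1, and 4930546K05Rik (score 90), followed by AC167363.1 (75), Gm36380 (74, 7667 bp from Irx3) and AC131323.3 (73, 9001 bp from Sox8). The nearest replicate 2 peak ended 508 bp from a start of 4930546K05Rik and 523 bp from one of AC131323.3, just outside the window. The highest in replicate 2 only belonged to Gm42555 (score 116), Gm3510 (62), Gm35501 (59) and 4933440M02Rik (36). Here the nearest replicate 1 peak ended 518 bp from a start of Gm42555, 510 bp from one of Gm3510 and 517 bp from one of Gm35501, again just outside. The score is a whole number from 1 to 150 that the authors gave each peak, whose scaling is not stated.

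Peaks at lone promoters spread over most of the range of scores, while those at near-coding promoters had the same median rank as peaks at coding genes. The median score of the best peak was 77 in replicate 1 and 54 in replicate 2 at lone promoters, 130 and 110 at near-coding promoters, 129 and 109 at open protein-coding promoters, and 45 and 38 over all peaks. Expressed as a percentile within its own list and averaged over the replicates, the median was 74.99 at lone promoters (distribution-free 95% interval 71.4 to 77.3), 96.3 at near-coding promoters (95.5 to 97.2) and 96.3 at open protein-coding promoters (96.2 to 96.4). A mean percentile of at least 90 was reached by 23.2% of lone, 71.8% of near-coding and 75.03% of open protein-coding promoters. Below the 50th percentile lay 22.0% of lone, 3.896% of near-coding and 4.06% of open protein-coding promoters. In number, 258 lone and 221 near-coding genes reached the 90th percentile.

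**Figure D2:**
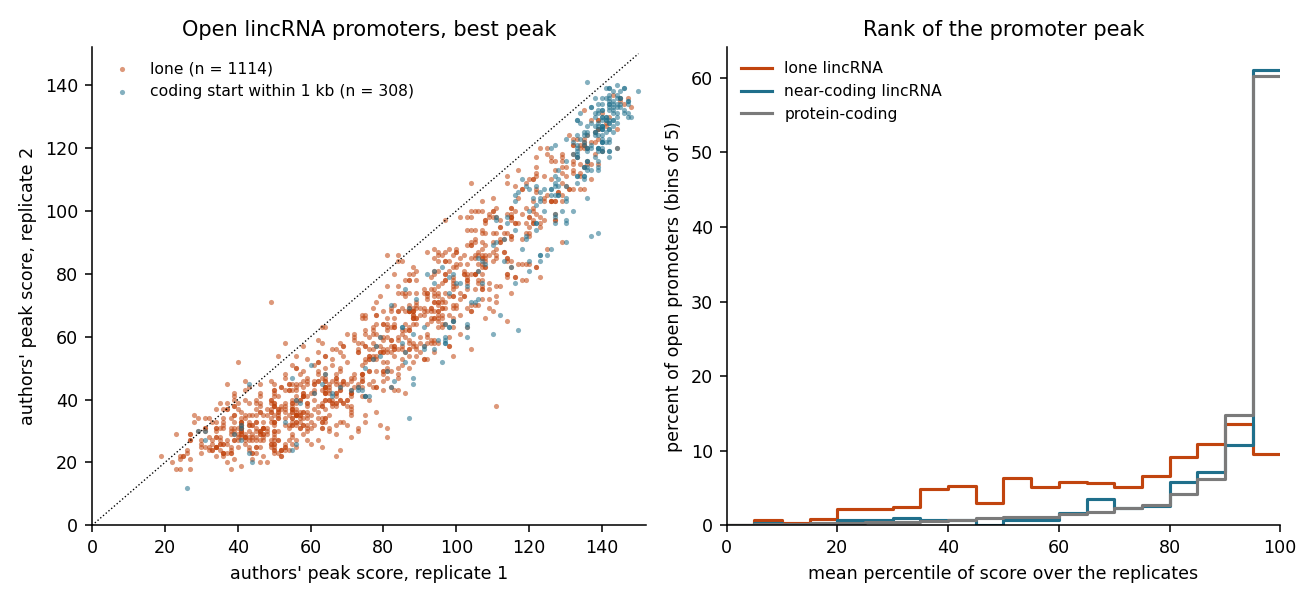
Left, the authors' score of the best promoter peak in replicate 2 against replicate 1, a point for each open lincRNA gene with both peaks at the same start; the dotted line marks equal scores. Right, percent of open promoters in bins of 5 of the mean percentile of score. Lone promoters spread widely, and near-coding and protein-coding ones crowd into the highest bin, with medians of 74.99 for lone, 96.3 for near-coding and 96.3 for protein-coding promoters.

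The order of the scores was shared by the replicates. Spearman's rho of the score was 0.955 over 1420 members, 0.933 over the lone and 0.940 over the near-coding ones, as a description over promoters of the same libraries. The score was higher in replicate 1 at 96.6% of lone and 99.0% of near-coding promoters. Hotspots, the wider stretches of cutting that the authors called around peaks, had a median width of 462 bp in replicate 1 and 418 bp in replicate 2 at lone promoters, against 1372 and 1128 bp at near-coding ones. The deposited −log10 q of the hotspot stood at 100, its highest value, at 74.0% and 52.9% of lone promoters in replicates 1 and 2. At near-coding promoters it did so at 96.4% and 87.0%. Width and score both ordered the classes the same way in each replicate.

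Peaks lay close to the annotated starts in both classes. The median distance from the start to the centre of the nearest peak was 100.5 bp in replicate 1 and 115.5 bp in replicate 2 at lone promoters, and 99.0 and 101.5 bp at near-coding promoters. The peak covered the start itself at 38.9% and 34.8% of lone and at 33.4% and 34.4% of near-coding promoters. Just inside the 500 bp limit stood D730050B12Rik, Gm15234 and 5430427N15Rik, whose farther peak ended 498, 495 and 493 bp from the start, and just outside stood Gm35725, Gm38171 and Gm39043 at 501, 502 and 502 bp. At the 1 kb split, Gm27042 (972 bp from Aldh18a1), Gm10605 (964 bp from Tpbgl) and Pantr1 (926 bp from Pou3f3) fell inside, and Gm28616 (1091 bp from Auts2), Gm29395 (1091 bp from Slc9a9) and Gm27030 (1153 bp from Zcchc14) fell outside.

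The 12 highest-ranked lone promoters belonged to Gm11527, 6720427I07Rik, 1810019N24Rik, 1700096K18Rik, Gm20732, Tmem250-ps, Gm6410, Gm33195, 5430416N02Rik, Gm11205, Gm31812 and Gm10010. Most are known only by clone or model names, and no function is given for them here. The score was 147 in replicate 1 and 136 in replicate 2 at Gm11527, 145 and 136 at 6720427I07Rik, and 148 and 133 at Gm20732, whose nearest coding start, that of Zfat, was 104320 bp away. The CpG observed over expected ratio of the 12 was 0.49 at 1810019N24Rik, 0.60 at Gm31812 and above 0.6 at the other 10, up to 1.07 at Gm20732. The lone class depends on the annotation, and Tmem250-ps (143 and 137) lay 15 bp from the start of an mRNA in the RefSeq annotation. In all, 51 lone members (4.58%, 3.43 to 5.98) had a RefSeq mRNA start within 1 kb, as did 294 of the 308 near-coding ones (95.5%). Among the 100 highest-ranked lone members it was 11 (11%, 5.62 to 18.8), against 3.94% of the other lone members. The 1063 members lone in both annotations had a median mean percentile of 73.7 and a median CpG ratio of 0.30.

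The 12 highest-ranked near-coding promoters lay beside the coding genes Sin3a, Dact3, Snrpe, Gm42906, Bclaf1, Hspa2, Dpysl2, Pik3r2, Ift27, Hsf2, Mex3b and Cep55. Snrpe encodes a core protein of spliceosomal particles, Hsf2 a heat shock transcription factor, Ift27 a protein of intraflagellar transport, and Cep55 a midbody protein of cell division. Dpysl2 encodes a tubulin-binding protein of growing axons. The lincRNA gene 2700012I20Rik beside Sin3a scored 150 and 138, 9330104G04Rik beside Dact3 146 and 139, Gm26706 beside Snrpe 146 and 139, and Gm5464 beside Dpysl2 147 and 135. Judged by the nearest coding start, the genes of 11 of these 12 pairs were transcribed away from each other, the exception being D730045B01Rik, on the strand of Gm42906. The start of 2700012I20Rik nevertheless lay inside the body of a coding gene on the opposite strand.

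Near-coding pairs were mainly divergent, whether open or not. Of the 308, 234 stood head to head (75.97%, 70.8 to 80.6), that is on opposite strands and transcribed away from each other, with a median distance of 153.5 bp between the starts. Orientation was judged from the nearest coding start alone, and 86 of the 308 open starts (27.9%, 23.0 to 33.3) lay inside a coding gene body. In 57 (18.5%, 14.3 to 23.3) the opposite-strand genes overlapped at their 5′ ends, at a median distance of 339 bp, and 17 (5.52%, 3.25 to 8.69) lay on the same strand, at 68 bp. The median mean percentile was 97.5 at head to head pairs (96.9 to 98.0), 85.4 at pairs with overlapping 5′ ends (80.4 to 89.2) and 94.5 at same-strand pairs (63.3 to 95.8). Among all lincRNA genes with a coding start within 1 kb, 81.0% of head to head genes were open (234 of 289, 75.96 to 85.3), 75% of those with overlapping 5′ ends (57 of 76, 63.7 to 84.2) and 60.7% of same-strand ones (17 of 28, 40.6 to 78.5). Head to head genes, 289 against 76 and 28, were thus the majority before any peak was asked for. Their share of the members is not read as a trait of open genes.

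Most paired starts had an open peak in common. The coding partner had a promoter peak of each replicate in 302 of 308 pairs (98.1%, 95.8 to 99.3), against the 66.3% of all protein-coding genes; the rule asked for peaks at the lincRNA gene, most of which also lie at the partner, so the partner's share is set in part by the rule. In 273 pairs (88.6%, 84.6 to 92.0) the best peak of replicate 1 also lay within 500 bp of a start of the partner. Paired starts lie within 1 kb by definition, so this share too is set in part by the rule. In 103 pairs (33.4%, 28.2 to 39.0) that peak was nearer to the open lincRNA start than to any start of the partner. The open start alone was set against all annotated starts of the partner, which favours partners with several. A peak in such a pair cannot be assigned to either gene from these data. Among members as a whole, 58 shared their best replicate 1 peak with another lincRNA member, so the 1422 genes stood for 1392 distinct peaks.

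CpG content, which the rule did not use directly, differed between the classes. The coding partner's start lay a median of 163 bp from the nearest start of a near-coding gene. The window used here, 500 bp each side, thus often takes in the partner's promoter, so the contrast with lone promoters is set in part by the split. Many mammalian promoters carry CpG islands, where CpG dinucleotides are spared from the loss seen elsewhere in the genome, and the ratio of observed to expected CpG within 500 bp of the start measures this. The median ratio was 0.307 at lone promoters (0.294 to 0.319), 0.736 at near-coding promoters (0.707 to 0.763), 0.722 at open protein-coding promoters and 0.190 at lincRNA genes that were not open (0.187 to 0.193). At least 0.6 was reached by 11.3% of lone (126 of 1114, 9.51 to 13.3), 73.7% of near-coding (227 of 308, 68.4 to 78.5) and 1.26% of lincRNA genes that were not open (56 of 4432, 0.956 to 1.64). GC content had medians of 49.1% at lone promoters, 58.5% at near-coding promoters and 44.6% at lincRNA genes not open. Lone open promoters thus had fewer CpGs than near-coding ones and more than closed lincRNA starts, with intervals that did not overlap.

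Within each class, CpG-rich promoters carried the higher-ranked peaks. Lone promoters with a CpG ratio of at least 0.6 had a median mean percentile of 94.5 (92.2 to 95.5, 126 genes), against 71.0 (68.5 to 74.4, 988 genes) below it. Near-coding promoters had 97.6 (97.1 to 98.0, 227 genes) at or above 0.6 and 87.9 (81.4 to 91.8, 81 genes) below it. Spearman's rho of CpG ratio and mean percentile was 0.393 over lone and 0.428 over near-coding promoters, as a description over promoters that share libraries and base composition. The CpG-rich lone promoters lay at a median of 27283 bp from a coding start, against 56684 bp for the other lone ones.

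**Figure D3:**
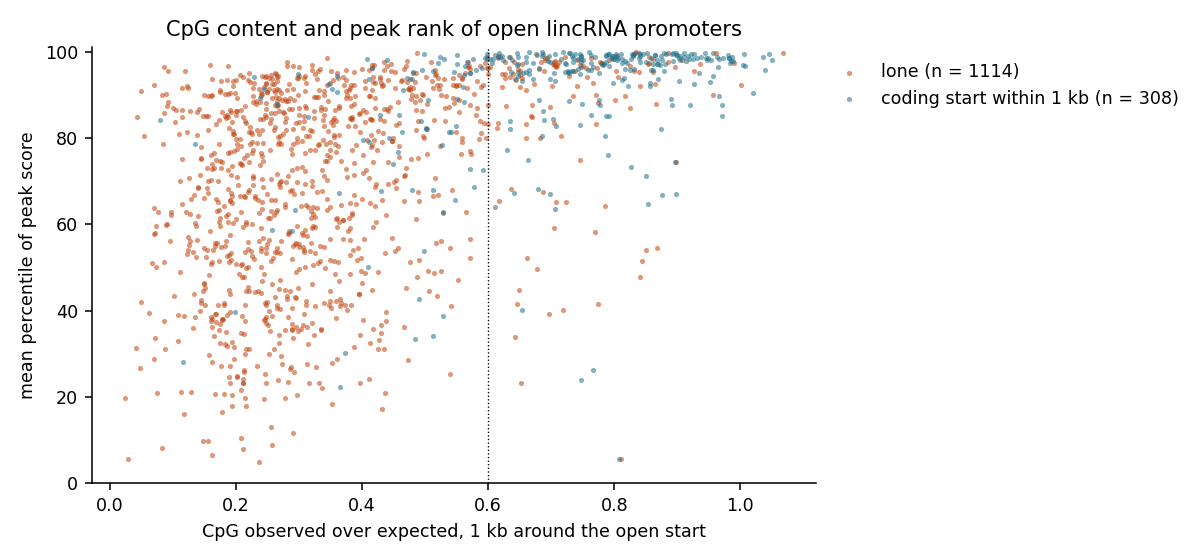
Mean percentile of the peak score against the CpG observed over expected ratio in 1 kb around the open start, a point for each open lincRNA gene; the dotted line marks a ratio of 0.6. Most of the 1114 lone promoters lie left of it over a wide range of percentiles, and 227 of the 308 near-coding promoters lie at or right of it, mostly near the top.

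At the same CpG content, lincRNA and protein-coding 5′ ends differed less than over all genes. Counting only a gene's 5′ end, 23.1% of lincRNA genes were open (1352 of 5854, 22.0 to 24.2) and 60.7% of protein-coding genes (13309 of 21938, 60.0 to 61.3). Protein-coding genes weighted to the CpG classes of the lincRNA genes, which are deciles of the ratio over coding 5′ ends, gave 26.3% (25.8 to 26.9). This interval is approximate: it treats the weighted value as a plain share of 21938 genes and the weights as free of error. In the lowest class the share was 5.30% of lincRNA (3.89 to 7.03) and 3.14% of protein-coding 5′ ends (2.46 to 3.96). Without replicate 2 the lincRNA share of that class was 8.95% (7.12 to 11.1). Around the middle the order turned: in the fifth class, with ratios from 0.40 to 0.55, it was 44.8% of lincRNA (40.3 to 49.3) and 72.3% of protein-coding 5′ ends (70.4 to 74.2), and in the sixth 70.3% (62.5 to 77.3) and 88.6% (87.2 to 89.9). In the highest class it was 94.6% of lincRNA (86.7 to 98.5, 74 genes) and 98.0% of protein-coding 5′ ends (97.3 to 98.5), with intervals that overlap. Of the 14 lincRNA genes of that class over 5 kb from a coding start, 71.4% were open (41.9 to 91.6). The share rose with CpG content in both kinds of gene, apart from a step down in lincRNA genes from the eighth class (91.4%, 81 genes) to the ninth (89.6%, 77 genes) within their intervals.

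Short motifs known to bind promoter factors were counted in the 200 bp around each open start. The letters, searched on both strands, were GGGCGG for the GC box, which Sp factors bind, and CCGGAAG for factors of the ETS family. GCGCATGCG stood for NRF1, TGACGTCA for the cyclic AMP response element (CRE), AAGATGGCG for YY1 and GTTGCCAT for the RFX family. TCTCGCGA is a palindromic promoter element, and AGGGGGC is the core of the motif of the insulator protein CTCF. The remaining motifs were TATAAA for the TATA box, CCAAT for the box bound by NF-Y, TAATTA for homeodomain factors and CAGATG for an E-box of neural factors. Matches of different motifs may overlap, as the GC box and CTCF letters do in the Gm11527 peak above. That peak is centred 323.5 bp downstream of the open start. The peaks of Neat1, 2700012I20Rik and 9330104G04Rik are centred 474.5, 237.5 and 264.5 bp upstream of theirs. The letters marked in these peaks therefore lie outside the windows counted here. A match is a description of the sequence and does not show binding.

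CG-rich motifs were scarcer at lone than at near-coding promoters. Coding partners start in or near many of the near-coding windows, so this contrast too is set in part by the split. The GC box was in 15.5% of lone windows (13.5 to 17.8), 50% of near-coding windows (44.3 to 55.7), 39.9% of all protein-coding 5′ ends, 56.1% of open protein-coding windows and 3.75% of lincRNA windows not open. Among lone promoters with a CpG ratio of at least 0.6 it was in 50.8%. The CTCF letters were in 4.40% of lone (3.27 to 5.77), 11.4% of near-coding (8.04 to 15.4) and 9.08% of all protein-coding windows. The NRF1 letters were in 1 of 1114 lone and 9 of 308 near-coding windows, at 0.0898% and 2.92%, against 1.77% of all protein-coding windows. For these motifs the intervals of the lone and near-coding classes did not overlap. The ETS letters were in 4.76% of lone (3.58 to 6.18), 8.77% of near-coding (5.86 to 12.5) and 9.58% of all protein-coding windows, and the CRE in 1.62% of lone, 2.60% of near-coding and 2.01% of all protein-coding windows, with overlapping intervals between lone and near-coding. The ETS intervals were apart with 500 bp around the start, at 8.26% of lone (6.71 to 10.03) and 16.9% of near-coding windows (12.9 to 21.5), and in the peak with 25 bp each side, at 4.85% (3.66 to 6.28) and 13.0% (9.44 to 17.3). In open protein-coding windows of 200 bp the ETS letters were in 12.2%, the CTCF letters in 11.4%, the NRF1 letters in 2.29% and the CRE in 2.35%.

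The AT-rich and neural motifs ran the other way. The neural E-box was in 15.7% of lone (13.6 to 17.98) and 8.44% of near-coding windows (5.59 to 12.1), against 9.48% of all protein-coding 5′ ends and 24.0% of 107430 distal open regions, which lie over 500 bp from every start. The homeobox letters were in 4.04% of lone (2.96 to 5.37) and 0.974% of near-coding windows (0.201 to 2.82), against 2.35% of all protein-coding 5′ ends and 6.89% of distal regions. In open protein-coding windows the neural E-box was in 6.67% and the homeobox letters in 0.867%. The TATA box was in 6.73% of lone (5.33 to 8.37) and 1.299% of near-coding windows (0.355 to 3.29), against 8.07% of all protein-coding 5′ ends. Among open protein-coding windows it was in 3.36% (3.08 to 3.67), below the lone windows, and among distal regions in 7.56%. In the peak with 25 bp each side it was in 5.21% of lone (3.98 to 6.68) and 3.57% of near-coding windows (1.80 to 6.30), with intervals that overlap, and with 500 bp around the start in 19.5% and 9.09%. In lincRNA windows that were not open the homeobox letters were in 6.81% (6.09 to 7.596) and the TATA box in 9.68% (8.82 to 10.6), above the lone windows. The neural E-box was in 18.4% of them (17.3 to 19.6), an interval that overlaps that of the lone windows. In the 126 lone windows with a CpG ratio of at least 0.6 the neural E-box share was 5.56% (2.26 to 11.1), not above the near-coding share. Below that ratio it was in 168 of 988 lone windows. The higher E-box share of lone windows was thus not seen at the CpG-rich ones. The homeobox letters were in 3.97% of the 126 (1.301 to 9.02) and the TATA box in 6.35% (2.78 to 12.1). Both intervals overlap those of near-coding windows.

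The RFX letters were more frequent at lone than at closed lincRNA starts. They were in 30 of 1114 lone windows (2.69%, 1.82 to 3.82) and in 0 of 308 near-coding windows (0 to 1.19), against 0.862% of all protein-coding 5′ ends, 0.949% of open protein-coding windows, 0.880% of lincRNA windows not open and 2.63% of distal open regions. With 500 bp around the start the letters were in 3.86% of lone (2.81 to 5.16) and 0.974% of near-coding windows (0.201 to 2.82), and in the peak with 25 bp each side in 4.04% and 0.974%. RFX factors regulate genes of cilia, and the promoters printed above for Gm42196 (129 and 117) and 6330576A10Rik (132 and 112) are among the 30. The CCAAT letters were in 25.8% of lone (23.2 to 28.4) and 24.0% of near-coding windows (19.4 to 29.2), against 24.1% of open protein-coding, 28.1% of all protein-coding and 27.8% of closed lincRNA windows. The YY1 and TCTCGCGA letters were each in at most 3 windows of a lincRNA class that was open, against 1.81% and 1.13% of all protein-coding 5′ ends and 2.87% and 1.35% of open protein-coding windows.

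**Figure D4:**
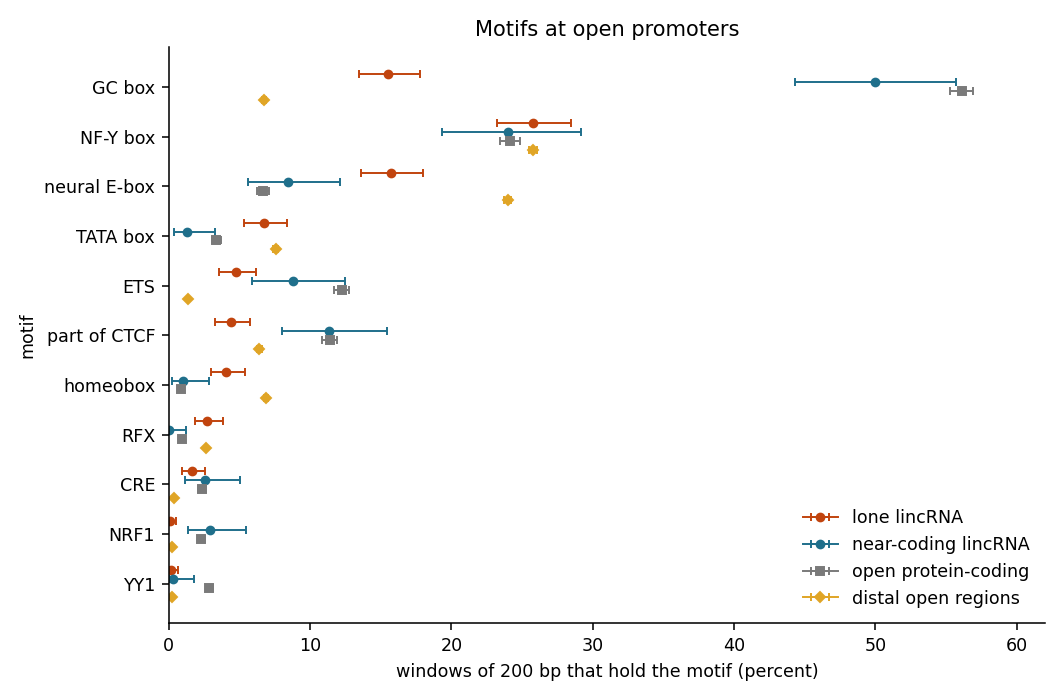
Percent of 200 bp windows that hold each of 11 of the motifs, for lone lincRNA, near-coding lincRNA, open protein-coding starts and distal open regions, with exact binomial 95% intervals. The GC box is in 15.5% of lone and 50% of near-coding windows, and the neural E-box in 15.7% and 8.44%.

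Well-known lincRNAs were taken from lists of textbook names, of which the genes with the lincRNA biotype were counted. In the neural and general list 12 of 14 were open, against the 24.3% of all lincRNA genes. Most of these genes have several annotated starts, as do some of the X inactivation genes and small RNA hosts below. The share open was higher with more starts, as given above, so the 24.3% is not a matched background for these lists. Neat1 scored 136 in replicate 1 and 120 in replicate 2, and the neighbouring Malat1, whose RNA gathers in nuclear speckles, 124 and 111. Miat, a nuclear RNA of neurons, scored 121 and 100, and Rmst, a partner of Sox2 in neurogenesis, 85 and 74 at a start with a CpG ratio of only 0.25 and a nearest coding start 551308 bp away. All of these promoters were open in each replicate, with the lower score in replicate 2.

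Hosts of neural microRNAs were open too. Mir9-3hg scored 124 and 104, Mir124a-1hg 120 and 95, and Mir124-2hg 104 and 94. miR-9 and miR-124 act in neurogenesis and neuronal differentiation. By contrast Mir17hg, host of the proliferation-linked miR-17 cluster, had a peak in replicate 1 only (43), with the nearest replicate 2 peak 574 bp from its start, outside the window. Lhx1os scored 127 and 108 and lies head to head with Lhx1, a LIM homeobox gene of Purkinje cells and other neurons, 125 bp away; Pantr1 scored 111 and 90, beside the POU factor gene Pou3f3. Lncpint scored 104 and 80, and 2900097C17Rik, the mouse Norad locus, 117 and 83.

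The X inactivation genes were open in 3 of 3 cases, against 24.3% of all lincRNA genes and 18.8% of those on the X chromosome. Xist scored 67 and 42, below its neighbours Jpx at 111 and 85 and Ftx at 129 and 118, which are activators of Xist. The libraries pooled males and females in proportions not given in the sources used here, and Xist is transcribed from the inactive X of females. Of the imprinted lincRNAs, Meg3, expressed from the maternal allele, was open at 108 and 89, while H19, also maternal, had a peak of 65 in replicate 1 and none in replicate 2, and Mirg, which lies downstream of Meg3, 48 and none. All 5 small RNA hosts were open, against the same 24.3% of all lincRNA genes: Snhg10 at 141 and 136, Snhg6 at 137 and 122, Snhg20 at 134 and 115, Snhg12 at 122 and 117, and Snhg18 at 95 and 59. Snhg10 lies 409 bp from Glrx5 and Snhg18 lies 148 bp from Sema5a, so both are near-coding.

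Among the Hox lincRNAs 1 of 3 was open, near the 24.3% of all lincRNA genes. Gm53, which starts 9847 bp from Hoxb9, scored 74 and 47, while Hotair of the Hoxc cluster and Hottip at the Hoxa13 end of the Hoxa cluster had no peak in either replicate. Of lincRNAs named for other organs, the cardiovascular Carmn (50 and 28) and its neighbour Bvht (65 and 40) were open at lower scores than the neural genes above, and Lncenc1, of embryonic stem cells, had a peak of 49 in replicate 1 only. The scores of Carmn were at the 57.9 and 26.1 percentile of their lists, against 96.4 and 94.5 at Mir9-3hg.

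**Figure D5:**
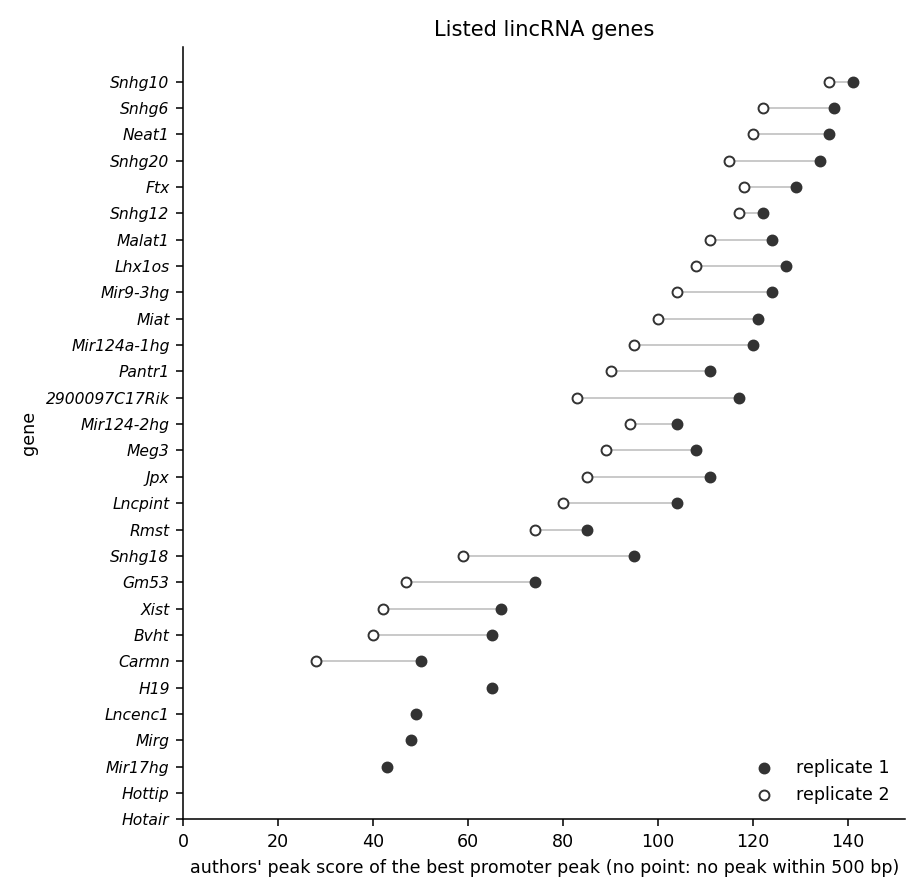
The authors' score of the best promoter peak in replicate 1 (filled) and replicate 2 (open) at each listed lincRNA gene; a gene without a point had no peak within 500 bp of a start. Snhg10 is highest at 141 and 136, Hotair and Hottip have none, and 4 genes have a replicate 1 point only.

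Lone open genes were longer than lincRNA genes that were not open, while the interval of the near-coding ones held the median of those not open. The gene length had a median of 8536 bp for lone (7681 to 9586) and 6126 bp for near-coding (4727 to 7526) open genes, against 5980 bp for lincRNA genes not open (5566 to 6321). The lone genes were nearer to coding starts than those not open, with medians of 51802 bp (45882 to 57504) and 73742 bp (69888 to 79318). Most open genes had 1 annotated start, at 66.6% of lone and 71.8% of near-coding ones, against 80.1% of those not open. Another lincRNA gene started within 1 kb of 6.82% of lone open starts (5.41 to 8.46), 0.325% of near-coding ones and 3.25% of starts not open (2.75 to 3.81).

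Distal open regions were counted within 50 kb of the open start. The median was 6 for lone (6 to 7) and 5 for near-coding promoters (5 to 6), against 5 for open protein-coding promoters and 4 for lincRNA genes not open (4 to 4). Without replicate 2 it was 13 for lone and 11 for near-coding promoters, and without replicate 1 it was 7 for each. The lone promoters with the most were C130071C03Rik and Gm26803 with 44 each, AC141471.6 and Gm35040 with 37 each, and AC141471.5 with 35. The leading pair stand beside each other, 68493 and 76694 bp from the start of Mef2c, a transcription factor gene of neuronal differentiation, and so share their surroundings; C130071C03Rik is a host of miR-9. C130071C03Rik scored 134 and 111 and Gm26803 131 and 107. Mir9-3hg, with 33 regions, lies within 50 kb of Gm35040. Rmst, in contrast, had 0 distal regions within 50 kb.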

How the data were processed

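DNase-seq libraries of the 2 replicates were used as deposited. Per the labels and the file lists deposited with each library, peaks and hotspots were called separately from the filtered alignments of each library on mm10; which programs aligned the reads and called the regions, and at what threshold, is not stated. The score of each deposited peak is a whole number from 1 to 150 with no stated scaling, and was ranked only within its own list. The deposited hotspot value is a −log10 q with a highest value of 100. At the lone promoters with the RFX letters it was either at most 6 or exactly 100. A value of 100 is therefore read only as higher than the others, and not as a measured q. Tables give regions and no reads, so depth and the precision behind a peak are unknown.

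Starts and biotypes came from GENCODE vM21 and sequence from GRCm38, the build of the peaks; the 21 assembled chromosomes were used. A gene was open when a peak of each replicate lay within 500 bp of any of its starts; the open start was that with the highest mean percentile, and 2 members whose peaks lay at different starts got 0 for the missing replicate. Shares carry exact binomial 95% intervals, approximate for the weighted coding share. Medians carry order-statistic 95% intervals, and there is no test between groups of samples. Genes named are the 12 highest-ranked of each class, the 3 nearest to each limit, listed genes, up to 5 seen in 1 replicate only (a gene that this rule would name is not reported here), and the 5 lone members with the most distal regions. Members, lists and tests were chosen with earlier results of these data known. The calculations, in Python 3.11.15 with numpy 2.4.6, pandas 2.3.3 and scipy 1.17.1, were checked on simulated peaks.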

Additional observations from a re-analysis of the deposited data

How the results depend on the processing

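The order of the classes was the same under the alternatives run: lone promoters had lower-ranked peaks and lower CpG ratios than near-coding ones under each. The share of lincRNA genes that were open was 29.2% with a window of 1000 bp, 20.1% with 250 bp, 23.1% at the 5′ end of the gene only, 18.3% with scores at or above the list median, 22.9% with lists of equal length, 22.5% where peaks overlap by 50%, and 26.9% on autosomes. The number of open genes stayed within 1.5 times 1422 under all of these. The near-coding share of members was 18.6% with coding starts within 500 bp, 27.5% within 5 kb, and 25.2% with RefSeq mRNA starts counted too, a setting added after the data were seen. The lone median percentile was 70.02 with the nearest peak, where Spearman's rho of the replicates' scores was 0.889. With the split at 5 kb the near-coding median percentile was 95.2 and CpG ratio 0.69, and with CpG counted within 250 bp the lone ratio was 0.33. Over 5 kb from a coding start, 18.9% of lincRNA 5′ ends were open and 22.5% of coding ones weighted to them. To the edge of the nearest peak the medians were 26 and 41 bp at lone and 24.5 and 27 bp at near-coding promoters in replicates 1 and 2. Distal regions numbered 3 at lone and 2 at near-coding promoters within 20 kb, and 13 and 12 within 100 kb.

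Leaving out a replicate moved several values, with the cause not tested. Over both omissions the open share ranged from 25.4% without replicate 1 to 32.5% without replicate 2. The near-coding share ranged from 17.1% to 21.1%, the median percentile from 66.7 to 68.4 at lone and from 95.4 to 96.9 at near-coding promoters, the share of open lincRNA 5′ ends from 24.2% to 30.9%, and the weighted coding share from 27.3% to 33.4%. The lone median peak distance was 115.5 bp in replicate 1 without replicate 2. Distal regions ranged from 7 to 13 at lone and from 7 to 11 at near-coding promoters. No paired analysis was possible because there is 1 group of samples. Unknown depth limits all of these: a promoter without a peak may have been open below the threshold used.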

Other observations

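Across chromosomes, the share of lincRNA genes with a promoter peak of each replicate was highest on chromosome 17, at 38.96% (90 of 231, exact binomial 95% interval 32.6 to 45.6), and lay between 21.8% on chromosome 10 and 31.1% on chromosome 5 on the other autosomes, with 26.9% on the autosomes together. On chromosome X it was 18.8% (18 of 96, 11.5 to 28.0), where 48.9% of protein-coding genes were open, against 67.6% of protein-coding genes on autosomes. On chromosome Y, 1 of 549 lincRNA genes was open (0.182%, 0.00461 to 1.01). These genes are counted in the 24.3% of all lincRNA genes. Reads are not given, so the lack of peaks on this chromosome is not read as closed promoters. No test was made between chromosomes.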
